A study of Mus musculus with 8 samples.

Results

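The Cyp4 genes described here are the fatty acid hydroxylases of the cytochrome P450 family 4 in mouse liver: Cyp4a10, Cyp4a12a, Cyp4a12b, Cyp4a14, Cyp4a31 and Cyp4a32 on chromosome 4, Cyp4f13, Cyp4f14 and Cyp4f15 on chromosome 17 and Cyp4v3 on chromosome 8. They were chosen by name, as the rows of the expression table whose Ensembl identifiers map to these symbols, with earlier results of these data known. All 10 had a row and were tested, among 14317 mouse genes in the table and 14312 that were tested. Livers came from female mice on a western diet (WD) for 8.5 weeks: 4 carried an empty silastic pellet (Con-Veh) and 4 a 10 mm pellet of dihydrotestosterone (Con-DHT), an androgen that is not converted to estrogen. The methods describe implantation at 7 weeks of age, and the labels give the genotype of both groups as WT. The question was how an androgen excess changes gene expression in the female liver. An overnight fast before collection is described in the methods without naming these livers. DHT reached the whole animal and not the liver alone.

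Enzymes of the Cyp4 family sit in the endoplasmic reticulum and place a hydroxyl group on the terminal (ω) carbon of a fatty acid. The product is oxidized further by alcohol and aldehyde dehydrogenases to a dicarboxylic acid, which is shortened in peroxisomes. Cyp4a10 and Cyp4a14 are classic targets of PPARα, the nuclear receptor that senses fatty acids and is active in fasting. Cyp4a12a and Cyp4a12b are known as male-predominant genes of mouse liver and kidney that respond to androgens, and their enzymes hydroxylate arachidonic acid. The Cyp4f enzymes inactivate leukotrienes, and Cyp4v3 is the mouse counterpart of the human gene that is mutated in Bietti crystalline dystrophy. These roles are background, and PPARα was not manipulated in this experiment.

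The Cyp4a genes lie side by side, in the order Cyp4a12a, Cyp4a12b, Cyp4a14, Cyp4a10, Cyp4a31 and Cyp4a32, with pseudogenes and the protein-coding gene Cyp4a30b, not analysed here, among them. Every member carries the loop with the cysteine that holds the haem iron. The coding bases of this loop are shown for 5 members because they are the part that makes each gene a P450 and show how far the subfamilies have drifted. Each stretch crosses an exon junction, so its coordinates (GENCODE M21, GRCm38) include an intron. It lies at chr4:115328986-115331846 in Cyp4a12a, chr4:115487299-115489805 in Cyp4a14, chr4:115529502-115532543 in Cyp4a10, chr17:32905666-32906065 in Cyp4f14 and chr8:45307107-45308407 in Cyp4v3. Capitals mark bases that differ from Cyp4a12a, and Cyp4a12b has the same 30 bases as Cyp4a12a.
Cyp4a12a: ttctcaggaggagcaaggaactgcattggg
Cyp4a10: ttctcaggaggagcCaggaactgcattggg
Cyp4a14: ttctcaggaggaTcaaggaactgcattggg
Cyp4f14: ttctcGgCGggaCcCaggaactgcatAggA
Cyp4v3: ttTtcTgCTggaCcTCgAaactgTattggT

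The Cyp4a genes are close copies, which bears on how reads were assigned to them. Cyp4a12a and Cyp4a12b were identical at 98.69% of aligned coding bases, and Cyp4a10 was identical to Cyp4a31 at 96.60%, to Cyp4a32 at 97.19% and to Cyp4a14 at 80.08%. Reads counted here had to map to 1 place, and 25.6% of the 150-base windows of the Cyp4a12a transcript are also found, base for base, in Cyp4a12b. For Cyp4a10, Cyp4a31 and Cyp4a32 the share of windows found in another transcript was 4.34%, 4.2% and 7.97%, and for Cyp4v3 it was 4.48%. No window of Cyp4a14, Cyp4f13, Cyp4f14 or Cyp4f15 was shared. Reads that match both copies were not counted, so the values of Cyp4a12a and Cyp4a12b may be too low, and their split is uncertain. The values of Cyp4a10, Cyp4a31 and Cyp4a32 are uncertain too, though fewer of their windows were shared. Cyp4a31 and Cyp4a32 were far less abundant than Cyp4a10 (238 and 158 against 17327 per kilobase of exon in Con-Veh). Misplaced Cyp4a10 reads could therefore weigh on the values of Cyp4a31 and Cyp4a32, which was not tested. The windows below, chosen where each pair differs most, show the bases by which a read can be assigned. Capitals mark the differing bases. The first pair is exon 6 of Cyp4a12a at chr4:115326702-115326761 and of Cyp4a12b at chr4:115432955-115433014, with 4 differing bases. The second pair is exon 2 of Cyp4a10 at chr4:115519640-115519699 and of Cyp4a32 at chr4:115602270-115602329, with 9 (all on the plus strand of GRCm38).
Cyp4a12a: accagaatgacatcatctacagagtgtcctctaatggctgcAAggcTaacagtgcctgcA
Cyp4a12b: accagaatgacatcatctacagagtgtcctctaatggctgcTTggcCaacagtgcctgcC
Cyp4a10: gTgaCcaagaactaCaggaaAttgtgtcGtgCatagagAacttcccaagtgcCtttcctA
Cyp4a32: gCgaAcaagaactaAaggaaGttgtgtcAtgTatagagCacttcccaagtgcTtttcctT

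The table gives read counts divided by a size factor per library, here called normalized read counts. Reads recovered on mouse genes were 14240001 to 17815944 per Con-Veh library and 13123962 to 15205299 per Con-DHT library. Groups were compared with limma on log2(value + 1), with Benjamini-Hochberg adjustment over all tested genes and a threshold of 0.05. Errors are SDs over 4 mice unless named. Nothing in the labels names a batch. In bulk liver, fewer cells of a type and less RNA per cell cannot be told apart. None of the 6 hepatocyte markers was called by limma or edgeR, at an unadjusted p under 0.05 in 0 of them, and DESeq2 called 1. Of 7 stellate, 5 cholangiocyte, 4 adipocyte and 2 of 6 lymphocyte markers with rows, limma, edgeR and DESeq2 called none, and 1, 0, 1 and 1 had an unadjusted p under 0.05 in limma. Of 7 Kupffer cell and macrophage markers, 4 (Cd5l, Cd68, Clec4f and Vsig4) were called lower in Con-DHT, against 2.61% of all tested genes. All 7 had an unadjusted p under 0.05 in limma, and none had a log2 fold change above 0. Their summed level per kilobase of exon was 2648 to 3306 in Con-Veh and 1752 to 2359 in Con-DHT. Of 7 sinusoidal endothelial markers, Lyve1 and Stab2 were called lower, 3 had an unadjusted p under 0.05 and 1 had a log2 fold change above 0. Their summed levels were 665 to 777 and 509 to 630. The part of this shift in the Cyp4 values was not tested.

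Of the 10 members, Cyp4a12a, Cyp4a12b and Cyp4a32 were higher in Con-DHT, none was lower and 7 did not pass the test. Over all tested genes, 7.21% were called, 4.60% higher and 2.61% lower. The same 3 genes, and no other member, had Con-Veh and Con-DHT livers that did not overlap, as did 15.1% of all tested genes. The median log2 fold change was 0.24 over the members and -0.01 over all tested genes. Count tests on the recovered reads (edgeR and DESeq2) called the same 3 members. Cyp4a12a and Cyp4a12b reached the mean of 10 needed for testing through the Con-DHT livers alone (Con-Veh means 4.04 and 1.74). Both were also called with no filter.

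Cyp4a12a, an arachidonic acid hydroxylase, had normalized read counts of 2.2, 2.9, 5.0 and 6.1 in the Con-Veh livers. In the Con-DHT livers they were 1539, 942, 195 and 1738. Every Con-DHT liver lay far above every Con-Veh liver, and replicate 3 was the lowest of the treated ones. The mean went from 4.04 ± 1.81 to 1104 ± 694 (SD, n = 4), a ratio of 273 whose 95% counting interval was 165 to 454, resting on 17 and 4332 reads. That interval covers counting error only. On the log2 scale this was a change of 7.45 (SE 0.60, adjusted p = 0.00021). It was 8.15 without Con-DHT replicate 3, and over all fits that left out 1 library it was between 7.10 and 8.15.

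Cyp4a12b, its near copy next door, read 2.2, 2.9, 1.0 and 0.87 in Con-Veh, which is 1 to 3 reads per library. The Con-DHT livers read 285, 281, 89.8 and 548, with replicate 3 again the lowest. Here too the groups did not overlap. The ratio of the means, 301 ± 188 over 1.74 ± 0.97 (SD, n = 4), was 173, with a 95% counting interval of 84.0 to 433 on 7 and 1173 reads. Its log2 fold change was 6.59 (SE 0.49) at an adjusted p of 0.00015, and between 6.22 (without Con-DHT replicate 4) and 7.08 (without replicate 3) in the fits that left out 1 library. At so few Con-Veh reads the pseudocount sets much of it: the log2 fold change of Cyp4a12b was 5.26 with a pseudocount of 5 and 7.25 with one of 0.1, and that of Cyp4a12a 6.57 and 7.77.

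Cyp4a32, at the far end of the cluster and nearly the same in sequence as Cyp4a10, rose by a smaller amount. Its values were 215, 178, 272 and 304 in Con-Veh and 632, 525, 412 and 629 in Con-DHT. The lowest treated liver, replicate 3, was above the highest Con-Veh liver. The mean rose from 242 ± 56.4 to 550 ± 104 (SD, n = 4), or 2.27-fold, and the log2 fold change (SE 0.18) was 1.19, at an adjusted p of 0.0046. It stayed called in all 8 fits that left out 1 library, with adjusted p between 0.0037 and 0.0163. Its promoter is shown because it is the called member with an entry in the RefSeq promoter table. The 250 bases before the start site lie at chr4:115600688-115600937 on the plus strand (GRCm38.p6), and capitals mark a match to an androgen response element (ARE) with up to 2 mismatches in its 12 fixed bases, read on both strands.
Cyp4a32 promoter: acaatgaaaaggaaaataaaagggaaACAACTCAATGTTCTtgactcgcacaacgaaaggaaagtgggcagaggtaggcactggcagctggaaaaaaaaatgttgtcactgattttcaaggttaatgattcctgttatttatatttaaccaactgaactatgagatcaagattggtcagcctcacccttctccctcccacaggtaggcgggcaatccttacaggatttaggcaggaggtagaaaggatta

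The match starts at position -224 from the start site. The same rule found a match in 1.82% of 27018 promoter windows of 300 bases, which run from 250 bases before to 50 after the start. This is a description of the letters and not of binding. The window was also searched on both strands for the STAT5 motif TTCNNNGAA (in 8.47% of all windows), for the narrower forms TTCCNNGAA and TTCNNGGAA that it contains (4.94% together), for the PPAR core site AGGTCA (16.0%) and for the PPAR element DR1, a pair of such sites 1 base apart with up to 2 mismatches (3.82%). None of these is in the Cyp4a32 window. Among Cyp4v3, Cyp4f15, Cyp4f14 and Cyp4f13, the other members with promoters in the table, the only match was TTCNNNGAA in Cyp4f13, at position -22 from its start.

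**Figure D1:**
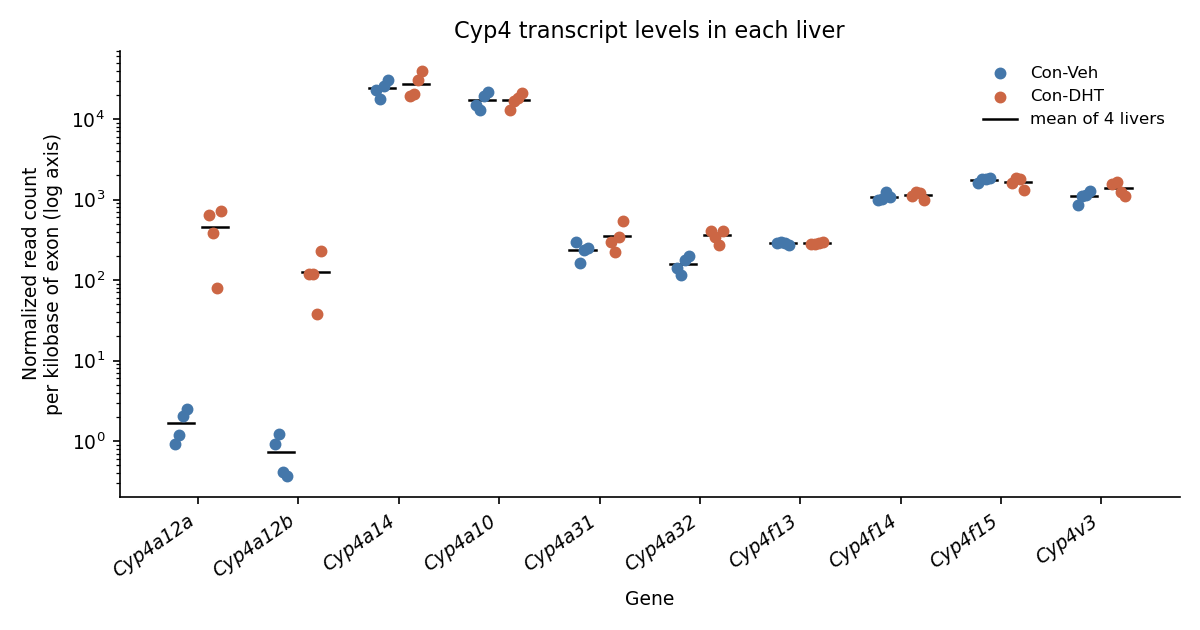
Normalized read count per kilobase of exon (log axis) of each Cyp4 gene, with 1 point per liver (Con-Veh and Con-DHT, 4 each) and a black line at the mean of each group. The Con-DHT points of Cyp4a12a (80.5 to 718) lie above its Con-Veh points (0.91 to 2.52), whereas both groups of Cyp4a10 and Cyp4a14 overlap (12855 to 21864 and 17463 to 39420).

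Cyp4a14, a PPARα target and the most abundant member, read 59852, 45422, 67570 and 79774 in Con-Veh and 50802, 52912, 79543 and 102531 in Con-DHT. The groups overlapped, with a log2 fold change of 0.15 (95% interval -0.43 to 0.72, adjusted p = 0.79). Its neighbour Cyp4a10, the other PPARα target, read 31616, 27248, 41198 and 46112 in Con-Veh and 27111, 34886, 38266 and 44948 in Con-DHT. Its log2 fold change was -0.0022 (95% interval -0.45 to 0.45, adjusted p = 0.996). The intervals leave room for a rise or a fall of either gene, but exclude changes of the size seen for Cyp4a12a and Cyp4a12b.

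Cyp4a31, a near copy of Cyp4a10, read 748, 411, 596 and 629 in Con-Veh and 742, 552, 853 and 1374 in Con-DHT. Replicates 4 and 3 of Con-DHT were above the Con-Veh range and the other two within it. Cyp4a31 had a log2 fold change of 0.51 (95% interval -0.06 to 1.09, adjusted p = 0.27). Of the 3 near copies Cyp4a10, Cyp4a31 and Cyp4a32, Cyp4a32 alone passed the test, and differences between them were not tested.

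The same values were also taken as ratios within livers, which removes the scaling between libraries up to the pseudocount. Since Cyp4a10 and Cyp4a14 moved little, these ratios restate the rise of Cyp4a12a and Cyp4a12b and add no independent evidence. The log2 ratio of Cyp4a12a to Cyp4a10 was -13.3, -12.8, -12.8 and -12.7 in the Con-Veh livers and -4.14, -5.21, -7.61 and -4.69 in the Con-DHT livers. The ratio rose by 7.45 on the log2 scale, and by 7.31 when set against Cyp4a14. The ratio of Cyp4a12b to Cyp4a10 rose by 6.59 and that to Cyp4a14 by 6.45. In all 4 pairs every Con-DHT liver lay above every Con-Veh liver. The two-sided exact permutation test over 70 arrangements of 4 against 4 livers gave p = 0.0286 for each pair, and 0.0286 after Benjamini-Hochberg adjustment over the 4 pairs, the smallest p this design allows and the one that groups without overlap give. The pairs share genes and livers and are not independent.

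**Figure D2:**
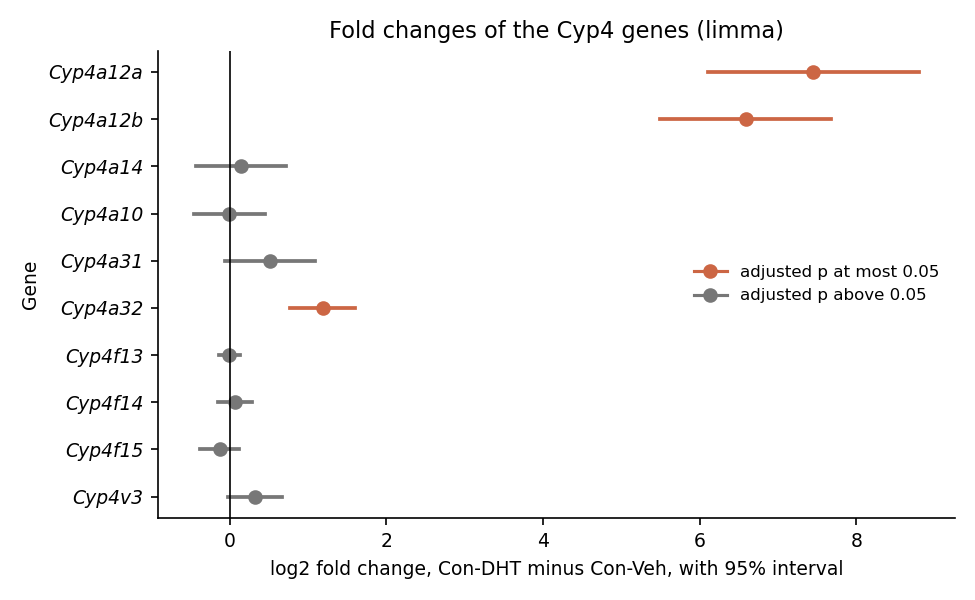
Fold change of each Cyp4 gene between the groups (log2 scale, Con-DHT minus Con-Veh), with its 95% interval from limma over 4 against 4 livers, coloured by adjusted p. Cyp4a12a (7.45), Cyp4a12b (6.59) and Cyp4a32 (1.19) lie above 0, and the intervals of the 7 other genes cross it.

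The Cyp4f and Cyp4v genes kept their order of abundance. Cyp4f15, which like the other Cyp4f enzymes takes leukotrienes as substrates, read 3630, 4096, 4147 and 4272 in Con-Veh and 3623, 4169, 4089 and 2992 in Con-DHT, where replicate 4 was below all other livers. Its log2 fold change was -0.13 (95% interval -0.37 to 0.12, adjusted p = 0.54). Cyp4f14, the leukotriene hydroxylase of mouse liver studied most, read 2358, 2461, 3037 and 2567 in Con-Veh and 2669, 2974, 2875 and 2389 in Con-DHT. The log2 fold change of Cyp4f14 was 0.07 (95% interval -0.15 to 0.29, adjusted p = 0.74).

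Cyp4f13 was the steadiest member, with 1194 to 1309 in Con-Veh and 1233 to 1299 in Con-DHT, and coefficients of variation of 4.01% and 2.22%. Its log2 fold change was -0.0048 (95% interval -0.14 to 0.13, adjusted p = 0.98). Cyp4v3 read 3288, 4255, 4342 and 4841 in Con-Veh and 5976, 6292, 4661 and 4155 in Con-DHT. Con-DHT replicates 1 and 2 were above every Con-Veh liver and the other two within their range. Cyp4v3 had a log2 fold change of 0.33 (95% interval -0.02 to 0.67, adjusted p = 0.24).

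Levels of different genes were compared per kilobase of exon. In Con-Veh livers the order was Cyp4a14 (24281 ± 5532), Cyp4a10 (17327 ± 4096), Cyp4f15 (1769 ± 123), Cyp4v3 (1098 ± 170), Cyp4f14 (1077 ± 124), Cyp4f13 (285 ± 11.4), Cyp4a31 (238 ± 55.5), Cyp4a32 (158 ± 36.7), Cyp4a12a (1.67 ± 0.75) and Cyp4a12b (0.73 ± 0.41). The ranges of neighbours overlapped for Cyp4a14 and Cyp4a10, for Cyp4v3 and Cyp4f14, for Cyp4f13 and Cyp4a31, for Cyp4a31 and Cyp4a32 and for Cyp4a12a and Cyp4a12b. In Con-DHT livers the upper 5 places were the same, and Cyp4a12a moved from the ninth to the sixth at 456 ± 286. There its range (80.5 to 718) took in those of Cyp4a32 (268 to 411), Cyp4a31 (220 to 548) and Cyp4f13 (278 to 293). Cyp4a12b stayed last at 126 ± 78.6. Among 14287 genes ordered by level per kilobase, Cyp4a14 was at place 37 in Con-Veh and 25 in Con-DHT, Cyp4a10 at 54 and 46, and Cyp4a12a at 14007 and 1330.

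The Cyp4a12 genes thus remained a small share of Cyp4a transcripts. Cyp4a10 and Cyp4a14 together held 99.0% ± 0.13 of the summed Cyp4a level per kilobase in Con-Veh and 97.1% ± 1.17 in Con-DHT (SD, n = 4). Cyp4a12a and Cyp4a12b together held 0.0059% ± 0.0014 in Con-Veh. In the Con-DHT livers they held 2.23%, 1.33%, 0.239% and 1.51%, with a mean of 1.33% ± 0.82 and of 1.69% without replicate 3. Cyp4a31 and Cyp4a32 held 0.95% ± 0.13 and 1.58% ± 0.36. The summed level itself was 42006 ± 9614 in Con-Veh and 45972 ± 12924 in Con-DHT, with overlapping livers. These shares are a description and were not tested, and reads that match more than 1 near copy are missing from them.

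**Figure D3:**
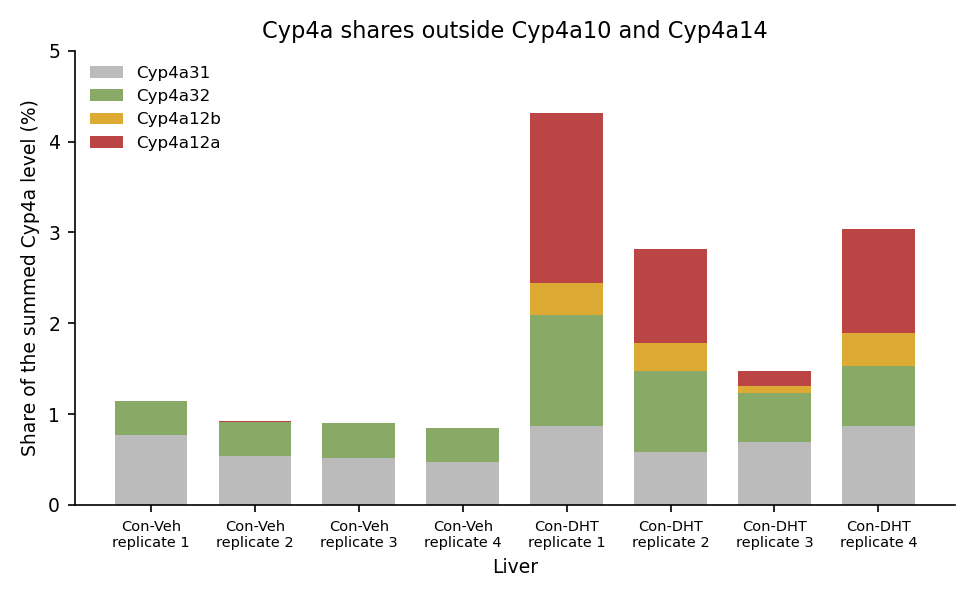
Share of the summed Cyp4a level per kilobase (percent, from 0 to 5) held in each liver by the 4 genes other than Cyp4a10 and Cyp4a14, stacked. Cyp4a12a and Cyp4a12b are too small to see in the Con-Veh livers (mean 0.0059% together) and hold between 0.239% and 2.23% in the Con-DHT livers.

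The livers also differed within groups. All of Cyp4a10, Cyp4a14, Cyp4a12a and Cyp4a12b were highest among the Con-DHT livers in replicate 4, while replicate 3 was the lowest for Cyp4a12a and Cyp4a12b and replicate 1 for Cyp4a10 and Cyp4a14. For each gene the distance between profiles was taken as the root mean square difference of log2(value + 1) over the 8 livers, after centring, among 10715 genes outside the members with a mean of at least 50. Nearest to Cyp4a10 were Slc27a1 (0.12), which encodes a fatty acid transport protein and is a PPARα target, 4933427D14Rik (0.13) and Gm37729 (0.15). Slc27a1 read 870, 1002, 1375 and 1514 in Con-Veh and 870, 1067, 1347 and 1432 in Con-DHT. Within each group its livers stood in the order of Cyp4a10, except that replicates 1 and 2 of Con-Veh changed places. Nearest to Cyp4a14 were Thg1l (0.18), Arhgef6 (0.18) and Acot1 (0.19), an acyl-CoA thioesterase gene and PPARα target. Among the members, Cyp4a10 and Cyp4a14 were nearest to each other (0.18).

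The profile nearest to Cyp4a12a was that of Mup14 (0.68), followed by Mup7 (0.71) and Mup11 (1.00), and nearest to Cyp4a12b were Mup14 (0.57), Mup1 (0.71) and Mup11 (0.83). For these 2 members the distance is set mostly by the difference between the groups, so it picks genes with a fold change of like size, and Mup14, Mup7 and Mup1 passed the mean of 50 through the Con-DHT livers alone. The Mup genes encode major urinary proteins, carriers that male mice make in quantity in the liver. Mup14 read 5.5, 15.4, 12 and 13.1 in Con-Veh and 1540, 823, 434 and 2426 in Con-DHT. As with Cyp4a12a and Cyp4a12b, Con-DHT replicate 3 was the lowest treated liver and replicate 4 the highest. The same held for Mup7 and Mup11, but Mup1 was lowest in Con-DHT replicate 2 (68.7, against 74.5 in replicate 3). Mup genes are close copies, so their single values are uncertain. Nearest to Cyp4f14 were Pde3b (0.05), Rad21 (0.06) and Plpbp (0.06).

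**Figure D4:**
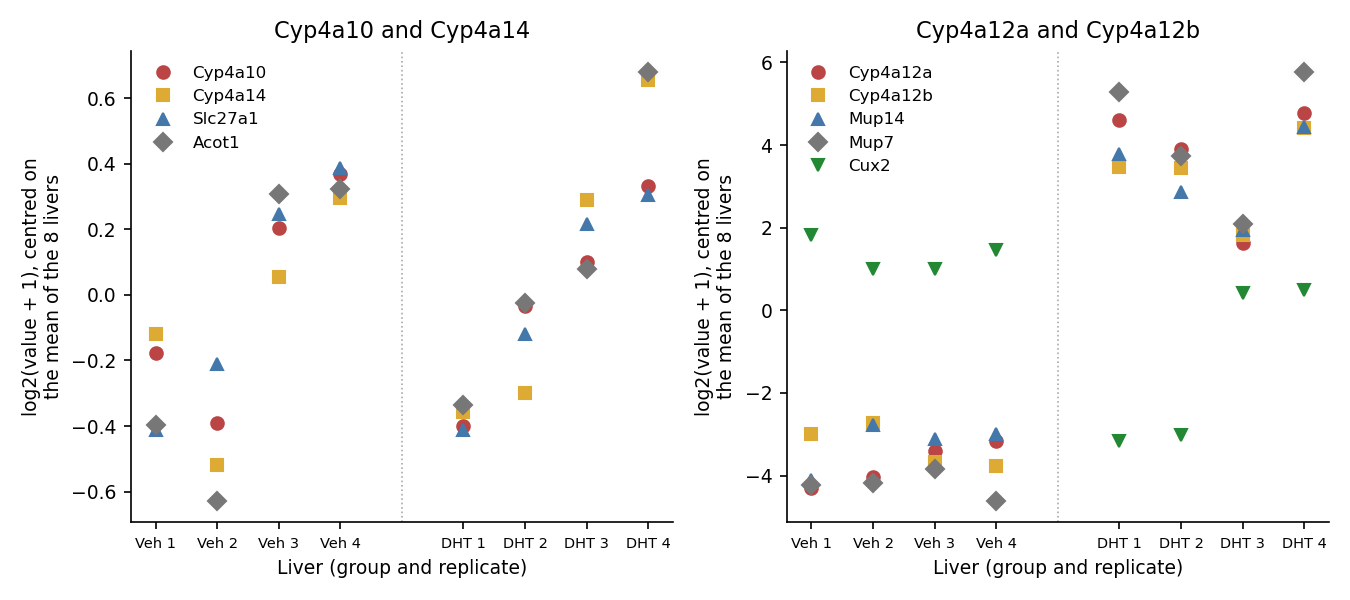
Each point is a gene in 1 liver, as log2(value + 1) minus the gene's mean over the 8 livers, with Con-Veh livers left of the dotted line. Cyp4a10, Cyp4a14, Slc27a1 and Acot1 span about the same range in both groups (left), while Cyp4a12a, Cyp4a12b, Mup14 and Mup7 are high in every Con-DHT liver, least in replicate 3, and Cux2 is lower in every Con-DHT liver (right).

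Other Cyp4 genes were few. Of 12 listed, Cyp4b1, Cyp4f16 and Cyp4f17 had rows, and none was called by limma, edgeR or DESeq2. At an unadjusted p of 0.05, limma passed 1 of them. Cyp4f16 read 64.7 ± 11.8 in Con-Veh and 42.4 ± 10.7 in Con-DHT (SD, n = 4, adjusted p = 0.12), and Cyp4b1 read 144 ± 22.6 and 129 ± 10.3 (adjusted p = 0.55).

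The wider PPARα program gave a context for Cyp4a10 and Cyp4a14. Of 43 listed targets, both of these included, 3 were higher in Con-DHT, none was lower and 40 did not pass. Of all tested genes 7.21% were called, a share to set beside the counts of this list and of those below. The median log2 fold change was 0.15, against -0.01 over all tested genes, and 33 of 43 had a value above 0. Cpt1a, the gatekeeper of fatty acid entry into mitochondria, read 9918 to 12416 in Con-Veh and 14856 to 16871 in Con-DHT. Every Con-DHT liver was above every Con-Veh liver, and the log2 fold change (SE 0.10) was 0.50 at an adjusted p of 0.012. Acsl1, an acyl-CoA synthetase, rose from 18834 ± 3156 to 30749 ± 5490 (SD, n = 4, log2 fold change 0.70, adjusted p = 0.026). The call of Acsl1 was lost without any of Con-Veh replicates 1, 2 and 3 and Con-DHT replicates 1 and 4 (adjusted p between 0.063 and 0.067). Fitm1, which takes part in lipid droplet formation, rose from 158 ± 33.1 to 357 ± 131 (log2 fold change 1.13, adjusted p = 0.019). The paper picked Cpt1a and Acsl1 for qRT-PCR because its own RNA-seq had called them. By qRT-PCR it reported both as unchanged by DHT, so their rise in the reads was not borne out there.

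The other PPARα targets described here did not pass. Ehhadh, of peroxisomal oxidation, had a log2 fold change of 0.17 (adjusted p = 0.67). Those of the pyruvate dehydrogenase kinase Pdk4 and the hepatic hormone Fgf21 were -0.29 (adjusted p = 0.51) and 0.25 (0.57). The pantetheinase Vnn1 was at 0.12 (adjusted p = 0.80), Acot1 at 0.20 (0.69), the lipid droplet coat gene Plin2 at 0.22 (0.55) and the lipase inhibitor Angptl4 at 0.06 (0.81). DESeq2 called 10 genes of this list and edgeR 5, and 6 passed without Con-DHT replicate 3. The DESeq2 calls were not all higher: Cd36, named here after its values were seen, was lower (adjusted p = 0.032). By limma its log2 fold change was -0.84 at an adjusted p of 0.078, and by edgeR the adjusted p was 0.113. The paper reported lower Cd36 mRNA and protein after DHT.

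The steps after ω-hydroxylation were read from 22 listed genes of dicarboxylic acid formation and breakdown. Of these, 3 were higher, 1 was lower and 18 did not pass, with a median log2 fold change of 0.18 and 19 values above 0. Aldh3a2, the fatty aldehyde dehydrogenase that completes the ω-oxidation step, read 8539 to 12828 in Con-Veh and 14390 to 16625 in Con-DHT. The log2 fold change of Aldh3a2 was 0.54 (SE 0.13, adjusted p = 0.030), and its call was lost without Con-Veh replicate 2 or 4 or Con-DHT replicate 1, 2 or 4 (adjusted p between 0.0513 and 0.0822). Adh4, an alcohol dehydrogenase that acts before it, read 870 ± 173 and 1448 ± 432 (SD, n = 4, log2 fold change 0.71, adjusted p = 0.066, and 0.029 without Con-DHT replicate 4).

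Peroxisomal transport and thiolysis genes made up the other calls. Scp2, a sterol carrier and peroxisomal thiolase, rose from 33381 ± 2179 to 56719 ± 6388 (SD, n = 4, log2 fold change 0.76, adjusted p = 0.0063). Abcd3, a peroxisomal importer of dicarboxylic and branched fatty acids, rose from 6797 ± 526 to 9164 ± 769 (log2 fold change 0.43, adjusted p = 0.020), and lost its call without Con-DHT replicate 1 or 2 (0.058 for either). Abcd2, an importer of very long chain fatty acids, fell from 800 ± 187 to 373 ± 67.3 (log2 fold change -1.09, adjusted p = 0.0057). Without Con-DHT replicate 1 or 2 the list had 2 calls.

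**Figure D5:**
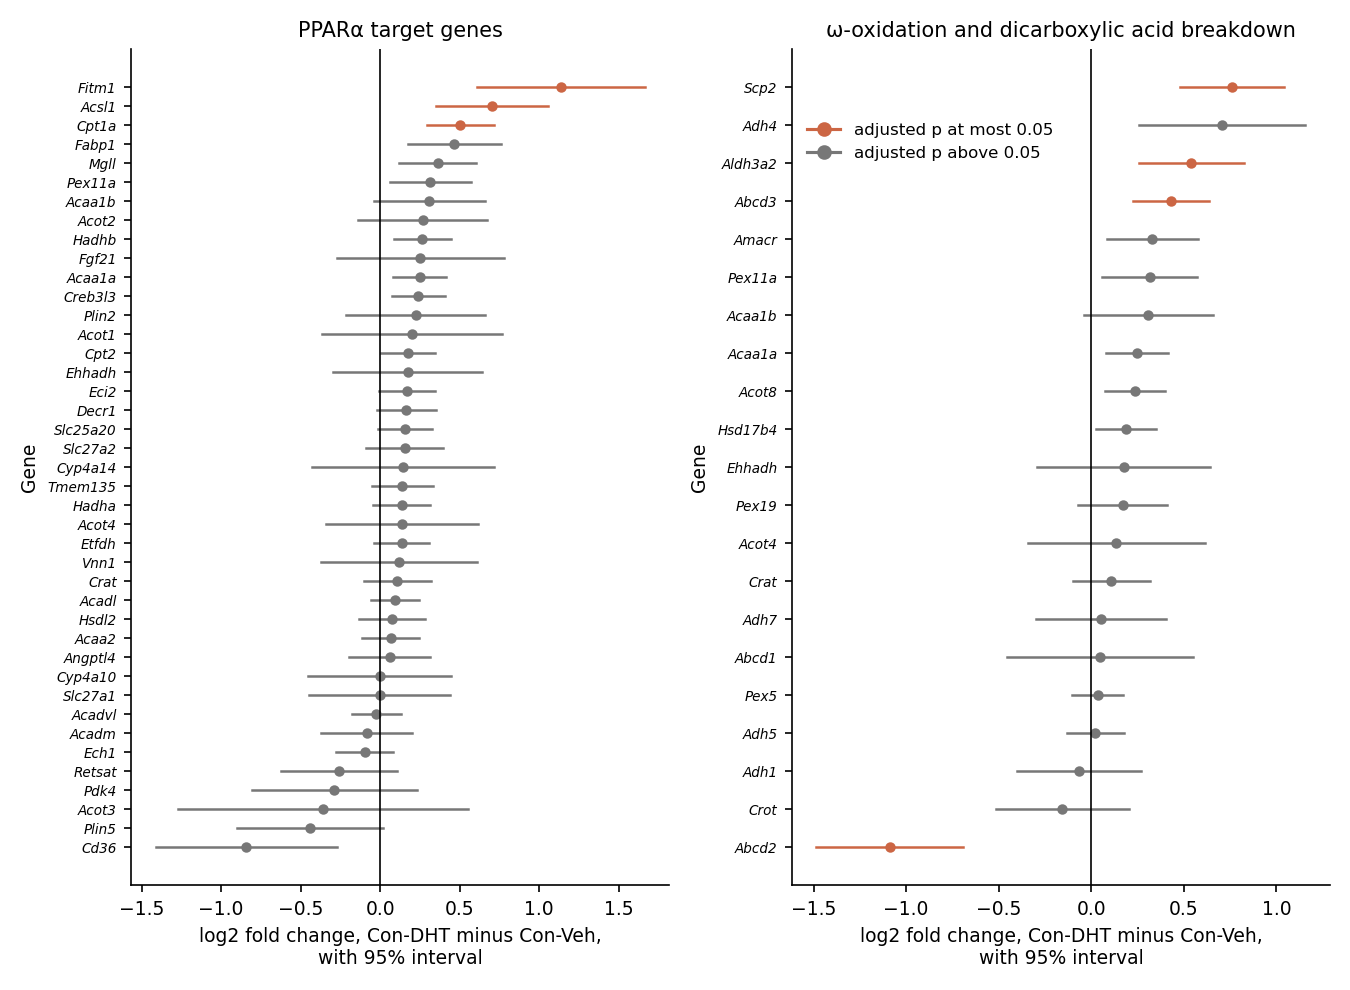
Fold changes (log2 scale, Con-DHT minus Con-Veh) with 95% limma intervals for 41 of the 43 listed PPARα target genes (left) and 21 of the 22 genes of ω-oxidation and dicarboxylic acid breakdown (right), ordered by value and coloured by adjusted p. Cyp4a10 (-0.0022) and Cyp4a14 (0.15) lie low or midway in the left panel, where Cpt1a, Acsl1 and Fitm1 passed, and Scp2, Aldh3a2, Abcd3 and Abcd2 passed on the right.

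P450 enzymes need electrons and haem. Of 14 listed genes for these, none was higher and Hmox1, the haem-degrading oxygenase, was lower, from 510 ± 88.9 to 342 ± 26.6 (SD, n = 4, log2 fold change -0.56, adjusted p = 0.021). Its call was lost without Con-Veh replicate 3 or Con-DHT replicate 2 (adjusted p of 0.0512 and 0.0621). Kupffer cell markers were also lower in these livers, and their part in the fall of Hmox1 was not tested. Over the list the median change was -0.06 on the log2 scale. Por, the reductase that passes electrons to all microsomal P450 enzymes, read 19894 ± 3324 and 20138 ± 3831 (adjusted p = 0.98).

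Of 18 listed genes of leukotriene and eicosanoid metabolism, which hold the sources and other fates of Cyp4f substrates, 12 had rows, none was higher and 1 was lower. This was Ptgs1, a cyclooxygenase, with 242, 252, 245 and 241 in Con-Veh and 174, 168, 165 and 121 in Con-DHT (log2 fold change -0.65, adjusted p = 0.012). The Kupffer cell markers were lower in the same livers, and their part was not tested. Over this list the median change was -0.03 on the log2 scale.

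Known regulators of these genes were read from a list of 29. Of them 1 was higher, none was lower and 28 did not pass, with a median log2 fold change of -0.01. Bcl6, a male-predominant repressor under growth hormone control, read 454, 840, 701 and 601 in Con-Veh and 1608, 1577, 1017 and 817 in Con-DHT. The groups of Bcl6 overlapped, with a log2 fold change (SE 0.24) of 0.93 at an adjusted p of 0.045, and the call was lost without any single library other than Con-Veh replicate 2 or Con-DHT replicate 4 (adjusted p between 0.0574 and 0.115). Ppara itself read 1570, 2365, 2409 and 2034 in Con-Veh and 2947, 3217, 2731 and 2532 in Con-DHT. Its groups did not overlap and the log2 fold change was 0.46 (SE 0.14), with an adjusted p of 0.070 by limma, 0.078 by edgeR and 0.027 by DESeq2.

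Stat5b, the growth hormone-activated factor, read 1206 ± 176 and 1022 ± 170 (SD, n = 4, adjusted p = 0.30), and the growth hormone receptor gene Ghr 5839 ± 695 and 5779 ± 1408 (adjusted p = 0.92). Cux2, a female-predominant transcription factor of the liver, is named here after its values were seen. It read 1001, 563, 562 and 768 in Con-Veh and 30.4, 33.9, 374 and 392 in Con-DHT. Replicates 1 and 2 of Con-DHT were far below replicates 3 and 4, and the groups did not overlap. Cux2 was not called, with an adjusted p of 0.078 by limma (log2 fold change -2.64, SE 0.80), 0.139 by edgeR and 0.201 by DESeq2.

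Many P450 enzymes are zoned across the liver lobule, so genes of its 2 ends were counted beside them. Of 10 pericentral genes none was called by limma or edgeR and 1 by DESeq2, with 1 at an unadjusted p under 0.05 in limma. Lgr5, a receptor of pericentral hepatocytes, had a log2 fold change of -0.61 (adjusted p = 0.078) and Rgn one of -0.21 (0.39). Of 10 periportal genes none was called by limma or edgeR and 1 by DESeq2, with 3 at an unadjusted p under 0.05 in limma. Cyp2f2 had a log2 fold change of 0.86 (adjusted p = 0.071) and the serine dehydratase gene Sds one of -0.27 (0.12). Kidney tubule, where Cyp4a12 genes are also known to be expressed, was checked with 5 markers, of which Lrp2 had a row. Lrp2 read 22, 0, 3.0 and 0 in Con-Veh and 12.8, 39.7, 82.7 and 95.7 in Con-DHT (adjusted p = 0.042 by limma, 0.065 by edgeR and 0.18 by DESeq2). The part of kidney RNA in the Cyp4a12a and Cyp4a12b values was not tested.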

How the data were processed

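Liver RNA of 4 Con-Veh and 4 Con-DHT mice was sequenced, with 1 library per mouse, and all were used. The authors trimmed reads with Trimmomatic, aligned them with STAR, took exon counts of reads with 1 mapping place from featureCounts and used DESeq2. The labels name the build GRCm39. The deposited values are a normalized signal, counts divided by a size factor. Whole reads were recovered for 100% of values (tolerance 0.01).

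Genes of the mouse whose mean was 10 or more were tested on log2(value + 1) with limma 3.58.1 (trend), which understates changes of low genes. The alternatives were edgeR 4.0.16 on those reads, which called 1024 genes, and DESeq2 1.42.0, which called 1569, beside other pseudocounts (0.1 and 5), filters, scalings and left-out libraries. Libraries of a group differed beyond sampling noise (chi-square per degree of freedom 19.2 to 61.6). Symbols, exon lengths and sequences came from GENCODE M21 (GRCm38), promoters from RefSeq (GRCm38.p6). Levels per kilobase use exon length.

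The members and gene lists were chosen with earlier results of these data known. Named were every member, up to 6 called genes of each list or the 2 with the smallest adjusted p, a fixed set of pathway genes, and the 3 nearest profiles of 5 members. A few genes of that rule are not reported here, though they count in the list totals.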

Additional observations from a re-analysis of the deposited data

Results flagged for a closer look

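In groups of 4 livers, 6 of 76 groups held a liver whose gap to the nearest other exceeded Dixon's 95% critical share of the group's range, and chance gives about 1 in 20. No member was among them. Abcd3 in Con-Veh replicate 1 read 6012, against 6985 to 7115 in the other Con-Veh livers. Ptgs1 in Con-DHT replicate 4 read 120.7, against 165.3 to 173.7. Sds in Con-DHT replicate 3 read 3315, against 3432 to 3440. Pdk4 in Con-Veh replicate 3 read 900.4, against 376.9 to 433.3. Ehhadh in Con-DHT replicate 4 read 31410, against 15740 to 17950. Por in Con-Veh replicate 4 read 14930, against 21270 to 21980.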

How the results depend on the processing

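The calls of Cyp4a12a, Cyp4a12b and Cyp4a32 were kept in all 13 other settings and all 8 fits that left out a library. The 4 ratios kept their direction, but with 1 library left out the exact test cannot go below 0.0571, and with the replicate block (a paired sign-flip test) not below 0.125. With a block their values stayed 7.45, 7.31, 6.59 and 6.45. Without 1 library they lay between 7.03 and 8.18, 6.87 and 8.08, 6.31 and 7.12, and 6.16 and 7.01.

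Counts of called genes in the lists moved by scaling and tool. Scaling to the total without the Mup genes gave 9 PPARα targets, 10 ω-oxidation, 2 leukotriene, 3 regulator and 1 periportal gene. Spike-in scaling, which shifted the median log2 fold change of all genes to 0.188, gave 1, 0, 0, 2 and 1, with 0 for electron and haem genes. DESeq2 gave 10 PPARα, 8 ω-oxidation, 2 electron and haem, 3 regulator, 1 pericentral and 1 periportal gene, and edgeR 5 PPARα targets. Quantile normalization gave 2 electron and haem genes and 2 regulators. Regulators fell to 0 with a mean of at least 50, without the trend or with the replicate block, which also left 0 electron and haem genes. Over left-out libraries the counts ranged from 2 to 6 (PPARα), 2 to 5 (ω-oxidation), 0 to 1 (electron and haem), 0 to 2 (regulators), 0 to 1 (pericentral, 1 without Con-Veh replicate 3) and 0 to 1 (periportal, 1 without Con-Veh replicate 4 or Con-DHT replicate 3). Regulators rose to 2 without Con-DHT replicate 3 or 4. The cause was not tested.

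Genes that were not called and lie near 0 changed sign. Cyp4a10 was at 0.0019 with the upper quartile, 0.10 without the Mup genes, 0.20 by spike-ins and 0.10 by quantiles. Cyp4f13 was at 0.094 without the Mup genes, 0.19 by spike-ins and 0.0039 by quantiles. Ghr was at 0.057 without the Mup genes and 0.16 by spike-ins. By spike-ins Cyp4f15 was at 0.071 and Cyp4b1 at 0.048. Without 1 library the ranges were -0.13 to 0.13 (Cyp4a10), -0.049 to 0.29 (Cyp4a14), -0.033 to 0.011 (Cyp4f13), -0.079 to 0.24 (Vnn1), -0.038 to 0.11 (Angptl4), -0.050 to 0.28 (Ehhadh), -0.12 to 0.15 (Por) and -0.14 to 0.12 (Ghr).

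Over all genes, the 1032 calls (658 higher, 374 lower) became 637 by spike-ins (562 and 75), 1290 without the Mup genes (1082 and 208), 648 with a mean of at least 50, 1569 by DESeq2, and 638 to 897 without 1 library. With the replicate number as a block, 700 genes were called. Same-numbered livers did not deviate together (correlations -0.186, -0.0060, -0.0218 and -0.0761). Other-numbered livers ranged from -0.156 to 0.256. A pairing by number was thus not seen, but so few pairs cannot exclude it. The Cyp4a12 share was 1.34% without division by exon length, an alternative chosen after seeing the data, as were the shares without single libraries (1.03% to 1.69%). Depth limits Cyp4a12b in Con-Veh, at 1 to 3 reads per library.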
